A study of Mus musculus with 32 samples.

Results

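The genes of the Hippo-YAP pathway and *Ajuba* were followed across mouse lung tumors in which the tumor suppressor *Lkb1* (listed as *Stk11*) was intact, lost or restored. The 10 genes, of 53558 in the deposited tables, were found by symbol. They were the transcriptional co-activators *Yap1* and *Wwtr1* (TAZ), their DNA-binding partners *Tead1*, *Tead2*, *Tead3* and *Tead4*, the LIM-domain protein gene *Ajuba*, the angiomotin *Amotl2*, the kinase *Lats2* and the receptor tyrosine kinase *Axl*. The members were selected on the fold change of their counts between restored and non-restored tumors, and *Ajuba* and *Tead2* also on the difference of that fold change between *Trp53* genotypes, so those comparisons are given as values without a test.

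RNA-seq after removal of ribosomal RNA was run on 32 libraries of sorted tdTomato-positive cancer cells. All tumors were started by lentiviral Cre, carried KrasLSL-G12D and Rosa26LSL-tdTomato, and fell into 5 groups. KT tumors (4 libraries) carried no further allele, kept *Lkb1* and were not treated. Non-restored tumors (10 libraries) were homozygous for Lkb1XTR, a gene trap that Cre switches on and FLPo removes. Of these, 6 carried Rosa26FLPo-ERT2 and were given corn oil vehicle, and 4 lacked the recombinase and were given tamoxifen. Restored tumors (7 libraries) were Lkb1XTR/XTR with FLPo-ERT2 and were given tamoxifen, so the trap was removed in established tumors. The *Trp53*-deficient non-restored tumors (7 libraries) and *Trp53*-deficient restored tumors (4 libraries) carried Trp53flox/flox in addition. The non-restored ones included 5 libraries with FLPo-ERT2 and vehicle and 2 with tamoxifen and no recombinase. Animals were read from the titles: libraries sharing a title prefix were taken as 1 animal, which made 4 animals of these 7 libraries. Whether libraries with unlike titles share an animal is not known. Treatment of the Lkb1XTR mice, with tamoxifen in 4 mg doses or vehicle, lasted 2 weeks, so comparisons with KT also differ in treatment. They differ in virus dose as well, which the study's methods give as lower for KT than for *Trp53* wild-type Lkb1XTR mice. Tumors had grown for 24 to 27 weeks in *Trp53* wild-type mice and for 16 to 19 weeks in *Trp53*-deficient mice, so *Trp53* status and time of growth cannot be told apart. With *Trp53* intact, all 7 restored libraries were from females, against 7 of 10 non-restored and 2 of 4 KT libraries. With *Trp53* deleted, all 4 restored libraries were from females, against 4 of 7 non-restored libraries. Cre acted in any cell the virus reached, and a library could hold cells of more than 1 tumor. Among *Trp53* wild-type tumors with the trap, the study's methods count fewer mice than there are libraries, some of which may therefore share an animal, and p-values measure the spread between libraries.

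In the Hippo pathway, the kinases STK3 and STK4 act with SAV1 on LATS1, LATS2 and MOB1, which phosphorylate YAP1 and TAZ and hold them outside the nucleus. When the kinases are quiet, YAP1 and TAZ enter the nucleus and bind TEAD proteins, which recognise the letters CATTCC. AJUBA and its LIM-protein relatives bind LATS kinases and restrain them. *Amotl2*, *Lats2* and *Axl* are widely used as readouts of YAP1 activity, and the products of *Amotl2* and *Lats2* also act back on YAP1 as inhibitors. The pathway responds to mechanical force, cell contact and polarity, and in the lung it takes part in the step from alveolar type II to alveolar type I cells. RNA levels do not show where YAP1 protein is or whether it is phosphorylated.

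*Ajuba* is annotated at chr14:54567472-54577558 on the minus strand, *Tead2* at chr7:45215753-45233644 and *Tead1* at chr7:112679318-112906807, both on the plus strand, and *Axl* at chr7:25757273-25788705 on the minus strand (GRCm38). All are protein-coding, and their values count reads over the whole gene. The promoters of *Ajuba*, *Tead2* and *Axl* are shown because these were the members whose levels moved most between groups. RefSeq (GRCm38.p6) listed 300-base windows, from 250 before to 50 after a transcription start, for 8 of the 10 members, 12 windows in all. *Tead1* and *Tead4* had no entry. The 200 bases from 250 to 51 before the start are printed, 5′ to 3′ along the gene, with each CATTCC, or its reverse complement GGAATG, in capitals. The *Ajuba* bases lie at chr14:54577712-54577911 on the minus strand, those of *Tead2* at chr7:45215542-45215741 on the plus strand and those of *Axl* at chr7:25788784-25788983 on the minus strand.
Ajuba: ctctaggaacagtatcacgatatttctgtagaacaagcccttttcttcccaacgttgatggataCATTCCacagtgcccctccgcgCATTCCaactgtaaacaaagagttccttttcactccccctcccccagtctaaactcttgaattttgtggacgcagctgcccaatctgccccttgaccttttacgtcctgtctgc
Tead2: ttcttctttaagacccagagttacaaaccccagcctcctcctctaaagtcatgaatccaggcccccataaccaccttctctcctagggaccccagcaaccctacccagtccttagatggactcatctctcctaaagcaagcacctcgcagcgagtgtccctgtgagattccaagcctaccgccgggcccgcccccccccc
Axl: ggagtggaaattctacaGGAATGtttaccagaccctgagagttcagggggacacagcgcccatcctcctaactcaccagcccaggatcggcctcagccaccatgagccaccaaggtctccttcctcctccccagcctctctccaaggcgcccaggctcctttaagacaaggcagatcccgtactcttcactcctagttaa
The *Ajuba* window held CATTCC at positions −186 and −164, counted from the start, and the *Axl* window held its reverse complement at −233. The *Tead2* window held neither. Over both strands, CATTCC was present in 9 of the 12 windows of the members, against 14.7% of the 32851 RefSeq windows of that length. By gene it was present in 7 of the 8, and no share by gene was counted over all genes. Windows of 1 gene can overlap: those of *Wwtr1* held the same match, at −136 and −170 from their starts. The AP-1 letters TGANTCA, which can overlap CATTCC by 2 letters, were in no window of the members on either strand and in 7.81% of all windows. These letter matches are descriptions and were not tested as binding sites.

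Depth, as total estimated counts, ranged from 1302482 to 5943951 reads per library, so levels near 1 CPM (read counts scaled to library size) rest on a few reads. *Stk11* ranged from 16.6 to 27.3 CPM in KT tumors and from 11.6 to 22.4 CPM in restored tumors, against 0 to 1.07 CPM in non-restored tumors, and with *Trp53* deleted it was 0 to 0.772 CPM before and 8.50 to 14.9 CPM after restoration. *Trp53* ranged from 11.8 to 39.5 CPM in the wild-type groups and from 0.548 to 6.51 CPM in the *Trp53*-deficient ones. The alveolar type II marker *Sftpc* was at 1256 TPM (transcript abundance per length) or more in every library, so the labelled lung origin was seen in all 32. Among markers of cells the sort removed, *Cd3e* was at 0 in 31 of 32 libraries, but *Ptprc* (CD45) and fibroblast collagens were detected unevenly, and their values are given beside the genes that moved with them.

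**Figure D1:**
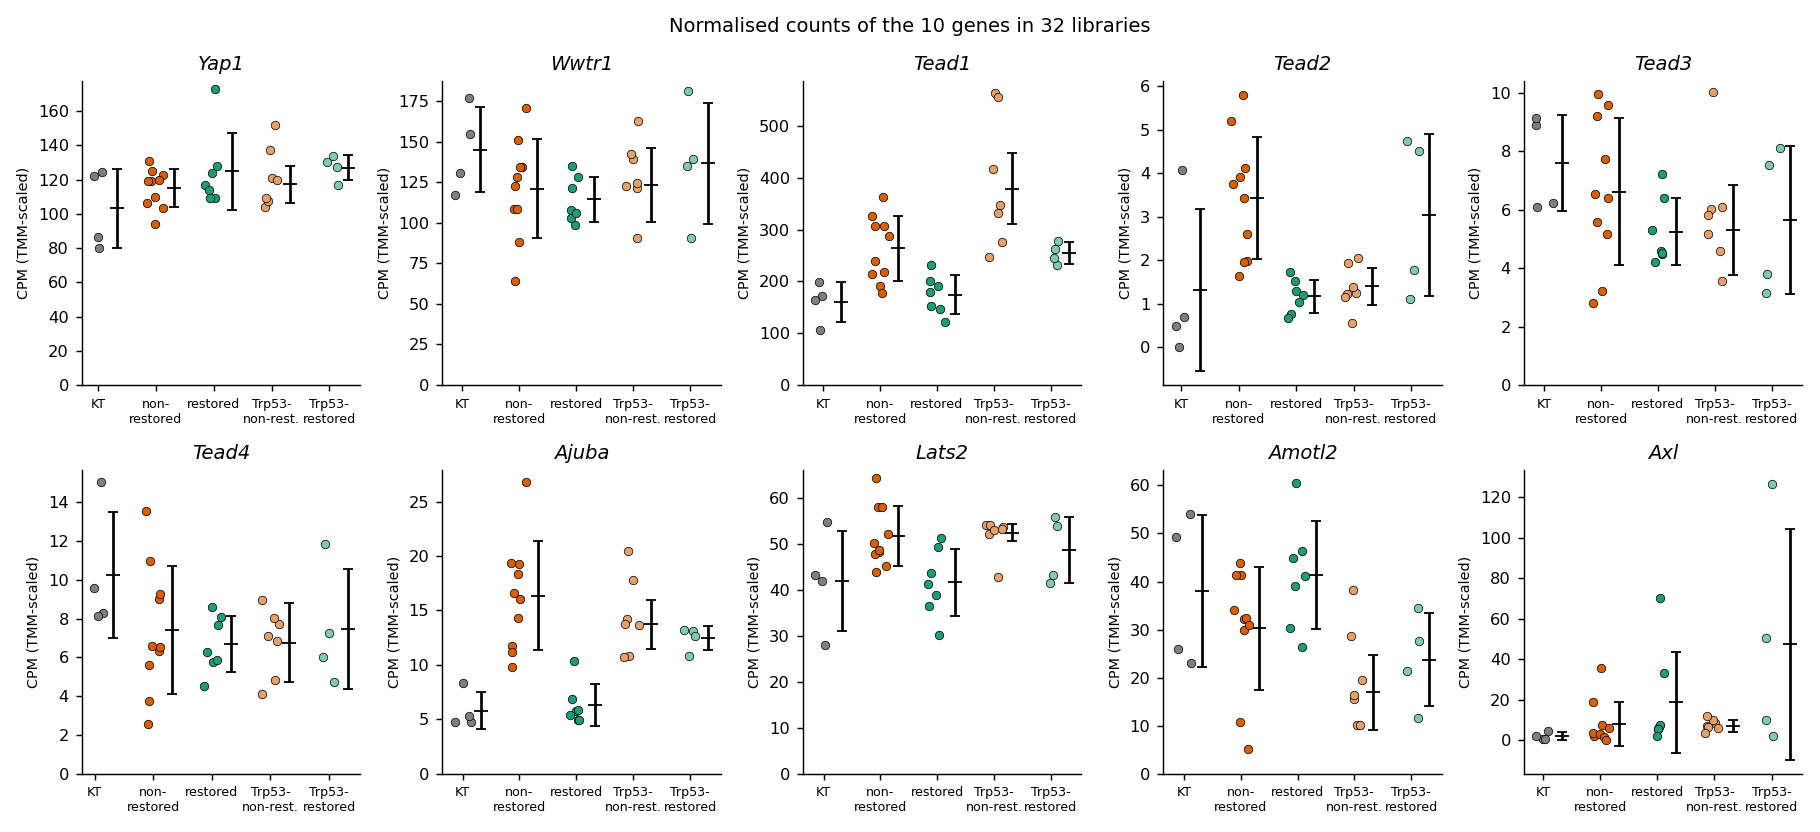
Level of each of the 10 genes in every library, in TMM-scaled CPM, for the 5 groups of tumors. Points are libraries, and the bars give the mean and SD over libraries or, for Trp53-deficient non-restored tumors, over 4 animals. Ajuba lay higher in all 10 non-restored than in all 4 KT libraries, while Yap1 and Wwtr1 stayed at similar levels in all groups.

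The co-activators and *Tead1* were the most abundant members per length. *Tead1* averaged 30.1 ± 9.59 TPM (SD, n = 4) in KT, 56.4 ± 15.0 TPM (n = 10) in non-restored and 36.2 ± 10.5 TPM (n = 7) in restored tumors. With *Trp53* deleted it averaged 75.0 ± 10.7 TPM (n = 4 animals) before and 53.1 ± 2.75 TPM (n = 4) after restoration. In bulk libraries, fewer cells of a type and less RNA per cell cannot be told apart. *Yap1* (34.0 to 44.4 TPM) and *Wwtr1* (32.9 to 40.3 TPM) had group means in a narrow range, and *Yap1* made up 45.9% to 55.3% of the sum of both. Next by their lowest group mean were *Lats2* (11.2 to 16.2 TPM) and *Amotl2* (7.37 to 16.9 TPM). *Ajuba* (3.27 to 10.3 TPM), *Tead3* (3.85 to 6.70 TPM), *Tead4* (3.90 to 5.67 TPM), *Axl* (1.53 to 16.5 TPM) and *Tead2* (0.848 to 3.33 TPM) had lower minima, and *Axl* spanned the widest range of the members relative to its lowest mean, above *Lats2* and *Amotl2* in *Trp53*-deficient restored tumors. Of the summed *Tead* TPM, *Tead1* gave 68.2% in KT tumors. Before and after restoration it gave 80.4% and 76.0% with *Trp53* intact, and 88.8% and 82.0% with *Trp53* deleted. *Tead1* was thus the predominant TEAD transcript in all 5 groups.

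Loss of *Lkb1* was examined by comparing non-restored with KT tumors. *Ajuba* and *Tead1* rose with the loss of *Lkb1*, and the other 8 members did not pass the test. *Ajuba* measured 4.79, 8.30, 5.29 and 4.80 CPM in KT replicates 1 to 4. In non-restored tumors it ran from 9.78 to 26.8 CPM with a median of 16.3 CPM. All 10 non-restored libraries were above all 4 KT libraries, and the mean rose 2.82-fold, from 5.80 ± 1.69 (SD, n = 4) to 16.4 ± 5.01 CPM (n = 10). The log2 fold change was 1.51 (SE 0.28, 95% interval 0.92 to 2.10, adjusted p = 0.00259, edgeR quasi-likelihood test, Benjamini-Hochberg over 12636 genes). These non-restored libraries also entered the contrast that chose the members, so neither this test nor those of the other members here are independent of that choice. How many of all genes separate the groups fully, here or in the comparisons below, was not counted.

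*Tead1* measured 107, 172, 164 and 200 CPM in the KT replicates. In non-restored tumors it ran from 177 to 363 CPM with a median of 264 CPM. The groups overlapped, with 8 of 10 non-restored libraries above all KT libraries, and the log2 fold change was 0.71 (SE 0.20, 95% interval 0.29 to 1.13, adjusted p = 0.0397). This call was lost in 10 of 24 re-fits, including those without KT replicate 1, 2 or 3 in turn, with adjusted p from 0.0542 to 0.308. *Tead2* had 1, 0, 10 and 1 reads in the KT libraries (0.685, 0, 4.07 and 0.480 CPM) and 3 to 23 reads in non-restored tumors (1.63 to 5.81 CPM, median 3.59 CPM). All 10 non-restored libraries were above 3 of the KT libraries, while KT replicate 3 lay within their range. The log2 fold change of *Tead2* was 1.18 (SE 0.57, adjusted p = 0.239). Without KT replicate 3, the only KT library with more than 1 read, it was 2.92 (adjusted p = 0.0196). Leaving out that library was bound to raise the value, so this p is not evidence of a change.

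The co-activators themselves moved little. *Yap1* ranged from 80.1 to 125 CPM in KT and from 94.3 to 131 CPM in non-restored tumors (log2 fold change 0.15, SE 0.14, adjusted p = 0.558). *Wwtr1* ranged from 118 to 177 CPM in KT and from 64.1 to 171 CPM in non-restored tumors (log2 fold change −0.26, SE 0.18, adjusted p = 0.429). The ranges overlapped for both genes, with 2 of 10 non-restored libraries above all KT libraries for *Yap1* and 4 of 10 below all of them for *Wwtr1*. For the kinase *Lats2* the log2 fold change was 0.30 (SE 0.16, adjusted p = 0.29), and its 10 non-restored libraries were all above the KT mean of 42.0 CPM. *Tead3* (−0.18, SE 0.30, adjusted p = 0.789), *Tead4* (−0.46, SE 0.32, adjusted p = 0.435) and *Amotl2* (−0.34, SE 0.38, adjusted p = 0.656) had negative log2 fold changes that did not pass the test. *Axl* stood at 1.66, with a wide SE of 1.18 (adjusted p = 0.455). In all, 2 of 10 members, chosen partly on these libraries, were called, both higher, against 5.86% of all genes tested (2.38% higher and 3.48% lower). The median log2 fold change was 0.23 over the members and 0.03 over all genes, and DESeq2 likewise called 2 of 10, against 8.57% of all genes.

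The fibroblast, endothelial, hematopoietic and mesothelial markers that could be tested had positive log2 fold changes in the same contrast, none of them called. The 2 tested airway markers were negative (*Scgb1a1* −1.13, *Cyp2f2* −0.66), neither of them called. Of the 6 alveolar type I markers 3 were positive, and 1, *Pdpn*, was called lower (−2.59, adjusted p = 0.0269, edgeR). For the 6 fibroblast markers the median was 1.57, and the 3 endothelial markers that could be tested lay between 1.31 and 2.63. The summed endothelial level was 2.66 to 6.55 TPM in KT and 0.69 to 33.1 TPM in non-restored tumors. The mesothelial sum was 0 to 4.90 TPM in KT, 3.47 to 182 TPM in non-restored and 0 to 44.7 TPM in restored tumors, and with *Trp53* deleted 9.91 to 219 TPM before and 28.9 to 105 TPM after restoration. It was nearly all *Msln*, at a log2 fold change of 4.50 for non-restored over KT, while the other mesothelial markers *Upk3b* and *Wt1* were at 0 in 19 and 28 of the 32 libraries. The group means of *Tead1* and of the mesothelial sum had the same order, except that non-restored tumors were above *Trp53*-deficient restored tumors for *Tead1* and below them for the sum. Whether *Msln* came from mesothelial cells was not tested, nor was the part of other cells in the values of *Ajuba* and *Tead1*.

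**Figure D2:**
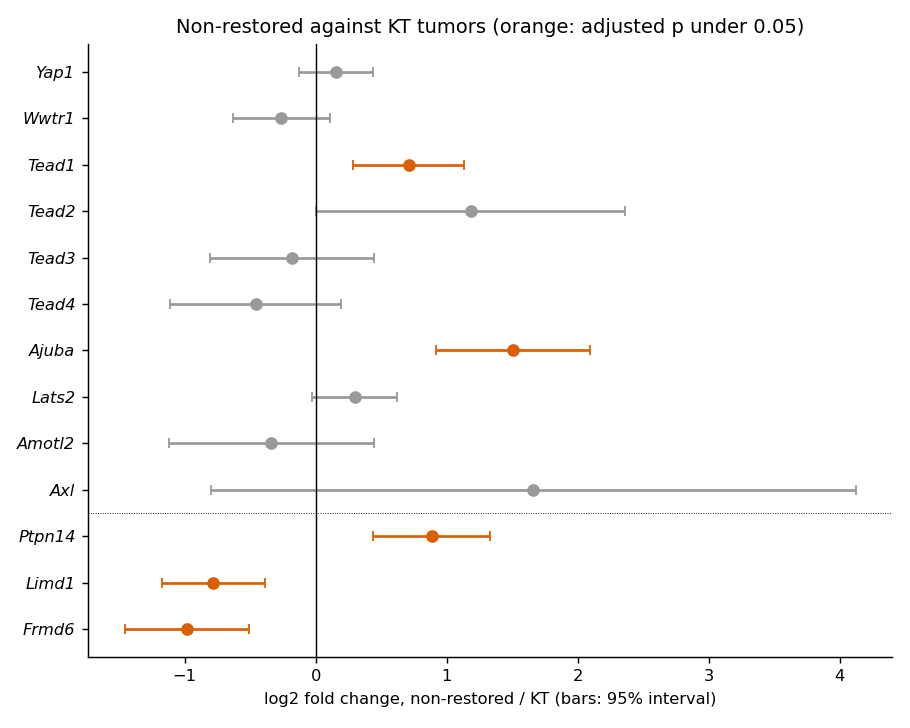
Log2 fold change of non-restored (n = 10) over KT tumors (n = 4) for the members and for the genes of the wider pathway that passed the test, with 95% intervals from the edgeR fit. Ajuba, at 1.51, and Tead1, at 0.71, are the members whose adjusted p was under 0.05, and the interval of Axl was the widest.

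The distance of restored tumors from tumors that never lost *Lkb1* was measured by comparing restored with KT tumors. *Ajuba* in restored tumors ran from 4.91 to 10.3 CPM with a median of 5.78 CPM, against 4.79 to 8.30 CPM in KT, and only replicate 4 of the restored group was above all KT libraries. The log2 fold change was 0.16 (SE 0.29, 95% interval −0.45 to 0.76, adjusted p = 0.913). *Tead1* stood at 0.12 (SE 0.21, adjusted p = 0.903) and *Tead2* at −0.34 (SE 0.60, adjusted p = 0.902), the latter turning to 1.41 (adjusted p = 0.622) without KT replicate 3. *Yap1* (0.27, SE 0.14, adjusted p = 0.523), *Wwtr1* (−0.34, SE 0.19, adjusted p = 0.552) and *Tead4* (−0.60, SE 0.33, adjusted p = 0.552) did not pass the test. The largest difference was that of *Axl*, at 2.92 (SE 1.23, adjusted p = 0.398). In total edgeR called 0 of 10 members, against 0.459% of all genes, and DESeq2 called 0, against 1.33%. An unadjusted p under 0.05 was seen for 1 member (*Axl*), against 10.5% of all genes. The restored libraries also entered the contrast that chose the members, so these tests are not independent of that choice.

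The response to restoration was read from restored against non-restored tumors. *Ajuba*, *Tead2* and *Tead1* were lower in restored tumors, and since this contrast chose the members, their values are a description. *Ajuba* averaged 16.4 ± 5.01 CPM (n = 10) before and 6.31 ± 1.90 CPM (n = 7) after restoration, a log2 fold change of −1.35 (SE 0.22). Of the 7 restored libraries, 6 were below all 10 non-restored libraries, and replicate 4, at 10.3 CPM, was inside their range. *Tead2* had 2 to 7 reads in restored tumors, and its level ran from 0.677 to 1.72 CPM with a median of 1.20 CPM. Its log2 fold change was −1.53 (SE 0.45), and again 6 of 7 restored libraries were below all non-restored libraries. *Tead1* ran from 121 to 232 CPM in restored tumors (median 179 CPM), with 3 of 7 libraries below all non-restored ones and a log2 fold change of −0.59 (SE 0.16).

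The kinase *Lats2* averaged 51.7 ± 6.52 CPM (n = 10) before and 41.6 ± 7.32 CPM (n = 7) after restoration, with 5 of 7 restored libraries below all non-restored ones and a log2 fold change of −0.31 (SE 0.13). The remaining fold changes were less than 2 SE from 0. They were −0.32 (SE 0.25) for *Tead3*, −0.15 (SE 0.26) for *Tead4* and −0.08 (SE 0.15) for *Wwtr1*. *Yap1* was at 0.12 (SE 0.11) and *Amotl2* at 0.46 (SE 0.31). *Axl* went the other way from *Ajuba*, at 1.26 (SE 0.78), with 2 of 7 restored libraries above the non-restored mean. Groups overlapped for all 10 members, and the share of all genes with such overlap was not counted. By the test, 1.87% of all genes tested were called in this contrast (0.973% higher and 0.894% lower). Among female libraries alone, in which both groups had 7, the directions of *Ajuba*, *Tead2* and *Tead1* were as given.

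In *Trp53*-deficient tumors, *Ajuba* was at similar levels before and after restoration. It measured 16.1, 14.3, 10.7 and 13.7 CPM in the 4 non-restored animals and 10.8, 13.3, 13.1 and 12.7 CPM in the 4 restored libraries. The ranges lay on top of each other, and the log2 fold change was −0.10 (SE 0.21). *Tead2* had 1 to 7 reads in each of the 7 non-restored libraries and 21, 9, 10 and 5 reads in the restored ones. In CPM it was 0.973, 2.00, 1.25 and 1.37 in the non-restored animals and 4.74, 1.78, 4.52 and 1.11 in the restored libraries, of which 2 were above all non-restored animals. It was too low for the filter on counts in the fit of *Trp53*-deficient tumors alone.

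*Tead1* was lower after restoration in *Trp53*-deficient tumors as well. It measured 456, 311, 332 and 417 CPM in the *Trp53*-deficient non-restored animals and 232, 263, 246 and 279 CPM in the restored libraries. All 4 restored libraries were below all 4 non-restored animals, and the log2 fold change was −0.54 (SE 0.15). *Axl* stood at 2.68 (SE 1.06) and *Amotl2* at 0.49 (SE 0.41). For *Lats2*, *Tead3*, *Tead4*, *Yap1* and *Wwtr1* it lay between −0.08 (*Lats2*, SE 0.16) and 0.19 (*Wwtr1*). Of 12518 genes, edgeR called 0, or 0%, in this contrast, with 748 at an unadjusted p under 0.05, and DESeq2 called 23.

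Whether the response differed with *Trp53* status was estimated as an interaction, in which a positive value means a higher log2 response in *Trp53*-deficient tumors. *Tead2* (2.58, SE 0.61) and *Ajuba* (1.21, SE 0.33) had the largest values relative to their errors, as their choice required. *Axl* was at 1.39 with an SE of 1.42, and ran from 0.23 without *Trp53*-deficient restored replicate 3 to 2.21 without restored replicate 1. *Tead3* (0.42), *Tead4* (0.27), *Wwtr1* (0.24) and *Lats2* (0.19) were positive and small. *Tead1* (0.01, SE 0.25), *Amotl2* (−0.004) and *Yap1* (−0.01, SE 0.16) were near 0. Over all 13705 genes edgeR called 0, or 0%, with 424 at an unadjusted p under 0.05, and DESeq2 called 0. Over 30 re-fits *Ajuba* ran from 1.11 to 1.38 and *Tead2* from 2.25 to 2.87.

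**Figure D3:**
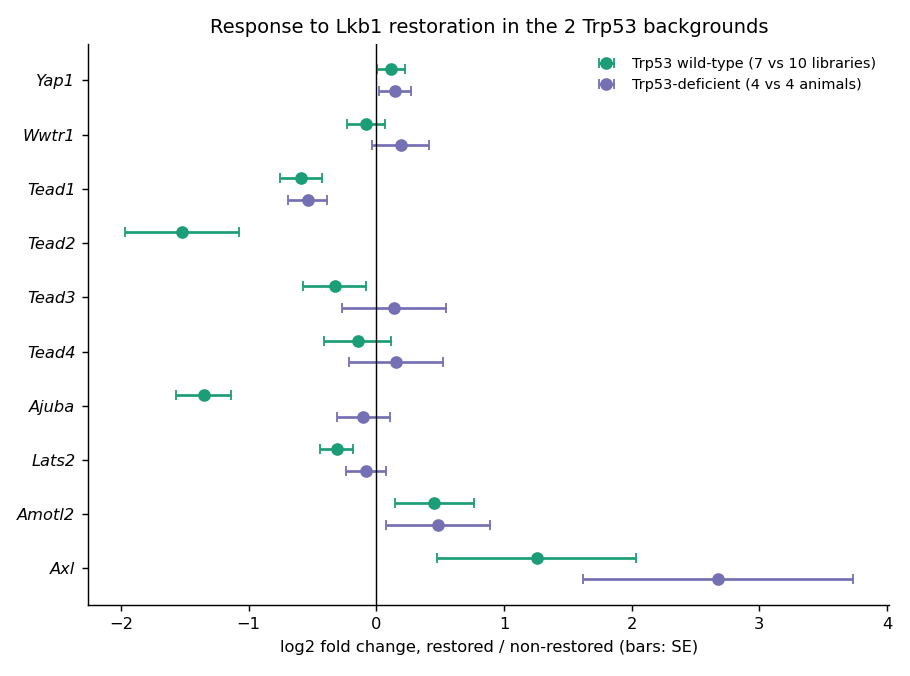
Log2 fold change of restored over non-restored tumors for each gene, with Trp53 intact and with Trp53 deleted, with SE from the edgeR fits (Tead2 has no value with Trp53 deleted, where it was too low to be fitted). Ajuba lay at −1.35 with Trp53 intact and −0.10 with it deleted, whereas Tead1 lay at −0.59 and −0.54.

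The same libraries can be read by *Trp53* status. Before restoration, the log2 fold change of *Trp53*-deficient over wild-type tumors was −0.26 (SE 0.22) for *Ajuba* and −1.26 (SE 0.43) for *Tead2*. After restoration *Ajuba* was at 0.95 (SE 0.24) and *Tead2* at 1.33 (SE 0.44). All 4 *Trp53*-deficient restored libraries were above all 7 *Trp53* wild-type restored libraries for *Ajuba*, and 3 of 4 were for *Tead2*. These values make up the interaction and were not tested again.

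The other 8 members were tested. The wild-type libraries here also entered the contrast that chose the members, so these tests are not independent of that choice. *Tead1* stood at 0.52 (SE 0.17, adjusted p = 0.128) before and 0.53 (SE 0.18, adjusted p = 0.182) after restoration, and its 4 *Trp53*-deficient units were above the wild-type mean in both. *Amotl2* was at −0.80 (SE 0.40, adjusted p = 0.294) before and −0.81 (SE 0.42, adjusted p = 0.351) after restoration, and its *Trp53*-deficient units were below the wild-type mean in both. *Axl* was at 1.36 (SE 0.97, adjusted p = 0.503) after restoration, at 0.19 without *Trp53*-deficient restored replicate 3 and at 2.17 without restored replicate 1. Of the 8, edgeR called 0 in either contrast, with 1 at an unadjusted p under 0.05 in each, and DESeq2 called 0 in each. The unadjusted share of all genes was 17.7% before and 15.5% after restoration, and the DESeq2 share was 3.06% and 1.58%. By edgeR, 0.598% of all genes were called before and 0.372% after restoration. Non-restored replicate 8 weighed on the first contrast: without it *Tead1* was at 0.54 with adjusted p = 0.0401, and 1450 of all genes were called in place of 82.

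Among non-restored tumors, the tamoxifen arm without recombinase and the vehicle arm with it were compared as 2 kinds of control. Log2 fold changes of the members ran from −0.22 (*Tead1*, adjusted p = 1) to 0.68 (*Axl*, adjusted p = 1). None of 10 members was called (0 at an unadjusted p under 0.05 and 0 by DESeq2), against 0.00791% of all genes called and 4.61% unadjusted.

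*Axl* was the least even member. It measured 0.685, 0.830, 2.44 and 4.80 CPM in KT tumors, 0 to 35.5 CPM (median 3.40 CPM) in non-restored tumors and 2.41 to 70.0 CPM (median 6.80 CPM) in restored tumors. In *Trp53*-deficient tumors it ran from 3.67 to 12.0 CPM (median 7.34 CPM) before restoration and measured 50.3, 9.89, 126.6 and 2.45 CPM after it. In the non-restored and both restored groups, 1 or 2 libraries stood far above the rest. *Axl* is also expressed by macrophages and fibroblasts. The sort kept tdTomato-positive cells and removed those with CD45 or F4/80, and in bulk libraries a few such cells that remained cannot be told apart from a change in the cancer cells. The 3 *Trp53* wild-type libraries highest in *Axl*, restored 1, non-restored 2 and restored 6, were those with the highest *Ptprc* of all 32, at 14.8, 7.79 and 12.9 TPM. With these 3 left out, a choice made after seeing the data, the log2 fold change of *Axl* was 0.20 for restored over non-restored and 1.25 (adjusted p = 0.7) for restored over KT tumors, in place of 1.26 and 2.92. *Trp53*-deficient restored replicate 1 had the highest summed fibroblast markers, 660 TPM, with *Ptprc* at 0.21 TPM. *Trp53*-deficient restored replicate 3, the highest *Axl* library, had 28.6 TPM of fibroblast markers and 1.84 TPM of *Ptprc*, and without it the log2 fold change in *Trp53*-deficient tumors was 1.54 in place of 2.68.

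Over the 6 fibroblast markers, the summed level ranged from 10.1 to 39.3 TPM in KT, 2.55 to 207 TPM in non-restored and 14.1 to 135.8 TPM in restored tumors. With *Trp53* deleted it ranged from 5.53 to 250.7 TPM before and from 0.83 to 660 TPM after restoration. Over the 6 hematopoietic markers it ranged from 9.04 to 17.8, 7.11 to 55.5, 5.43 to 69.5, 10.6 to 21.4 and 9.90 to 23.1 TPM in the same order. *Cd3e*, *Itgam* and *Cd79a* were at 0 in 31, 17 and 14 of the 32 libraries. The hematopoietic range was widest in restored tumors. What part these cells had in the values of *Axl* was not tested. The libraries left out above were also the *Trp53* wild-type libraries highest in *Axl* itself, so that re-fit cannot measure this part.

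*Amotl2* was lowest in libraries with few alveolar type II transcripts. Non-restored replicate 8 had 5.12 CPM of *Amotl2* and the lowest summed alveolar type II markers of all 32 libraries, 5904 TPM. *Trp53*-deficient non-restored replicate 7 had 10.1 CPM and the next sum, 6457 TPM. The next, *Trp53*-deficient non-restored replicate 6 and non-restored replicate 4, at 10.2 and 10.8 CPM, had ranks 5 and 7 from the bottom in that sum, and *Trp53*-deficient restored replicate 4, at 11.6 CPM, had rank 13. By group, the sum averaged 83070 TPM in KT tumors. It averaged 66220 TPM before and 97350 TPM after restoration with *Trp53* intact, and 25550 and 56050 TPM with *Trp53* deleted. *Amotl2* averaged 38.1, 30.2, 41.3, 16.9 and 23.8 CPM in that order. The groups had the same order on both measures, but in TPM *Amotl2* was 13.5 in KT and 14.2 in non-restored tumors, which turns the order of that pair. The part of cell state in the *Amotl2* values was not tested.

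**Figure D4:**
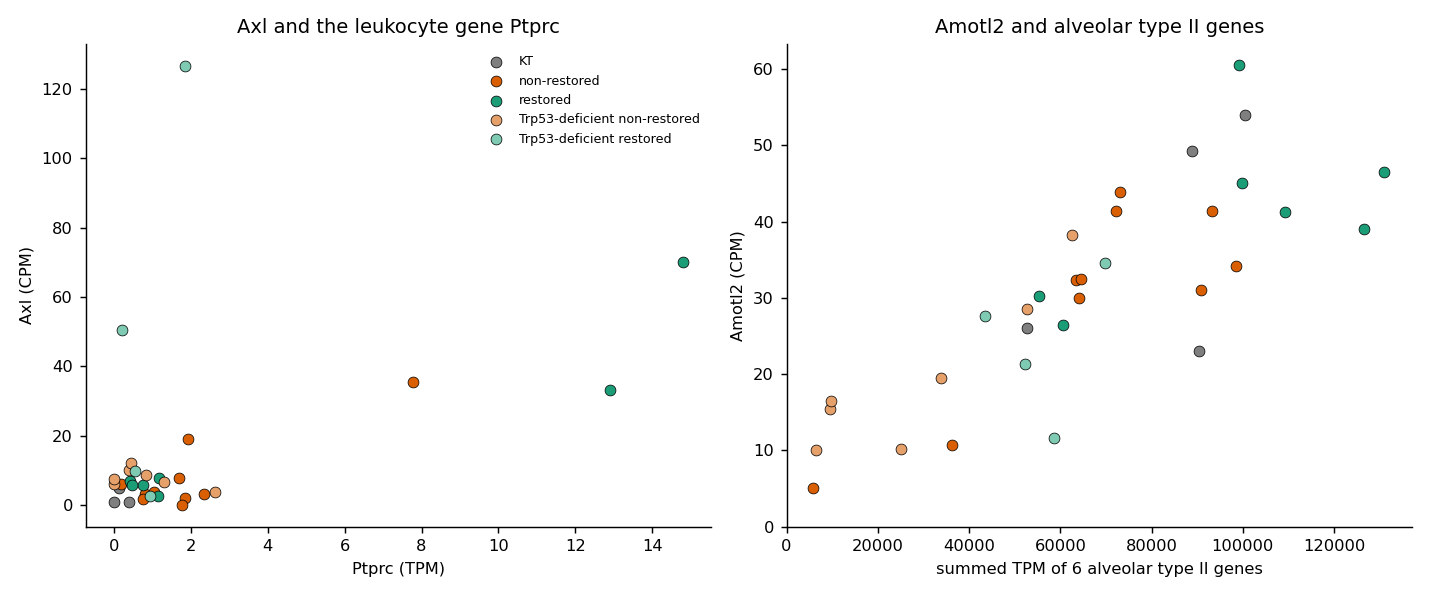
Axl (CPM) against Ptprc (TPM), and Amotl2 (CPM) against the summed TPM of 6 alveolar type II markers, 1 point for each of the 32 libraries, colored by group. The 3 libraries highest in Ptprc are among the highest in Axl, and the library lowest in Amotl2, at 5.12 CPM, has the lowest alveolar type II sum.

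Of 44 further pathway genes, 38 were high enough to be tested in *Trp53* wild-type tumors, and 3 changed with loss of *Lkb1*. *Ptpn14*, a phosphatase that binds YAP1 and is listed among its targets, rose from 4.08 ± 0.911 TPM in KT (n = 4) to 7.76 ± 2.22 TPM in non-restored tumors (n = 10; log2 fold change 0.88, SE 0.21, adjusted p = 0.0158). *Limd1*, of the same LIM-protein family as *Ajuba*, fell from 18.1 ± 2.15 to 12.8 ± 3.81 TPM (log2 fold change −0.78, SE 0.19, adjusted p = 0.0158), opposite in direction to *Ajuba*. *Frmd6*, a FERM-domain protein gene upstream of the kinases, fell from 25.3 ± 8.79 to 12.6 ± 2.31 TPM (log2 fold change −0.98, SE 0.23, adjusted p = 0.0127). The call was lost in 6 of 24 re-fits for *Limd1* (adjusted p up to 0.216), in 5 of 24 for *Frmd6* (up to 0.133) and in 5 of 24 for *Ptpn14* (up to 0.287). By role, 1 of 5 LIM-protein genes was lower, 1 of 14 genes of the kinase module was lower, 1 of 15 tested targets was higher and 0 of 4 tested angiomotin and VGLL cofactor genes was called. The 3 of 38 stand beside 5.86% of all genes. In all, 13 of the 38 had an unadjusted p under 0.05, against 20.8% of all genes, and DESeq2 called 7, against 8.57%. The median log2 fold change of the 38 was 0.11, against 0.03 over all genes. After restoration *Limd1* stood at 0.43 (SE 0.16, adjusted p = 0.189), *Frmd6* at 0.36 (adjusted p = 0.413) and *Ptpn14* at −0.30 (adjusted p = 0.413) relative to non-restored tumors.

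The wider list held no called gene in the other comparisons. For restored against non-restored tumors edgeR called 0 of 38 (7 at an unadjusted p under 0.05, 2 by DESeq2), against 1.87% of all genes (15.1% unadjusted), and log2 fold changes ran from −1.54 to 0.74 with a median of −0.07, against −0.01 over all genes. For restored against KT tumors it called 0 of 38 (5 at an unadjusted p under 0.05, 0 by DESeq2), against 0.459% (10.5% unadjusted). In *Trp53*-deficient tumors restoration gave 0 of 39 (5 unadjusted, 0 by DESeq2), and the difference by *Trp53* status gave 0 of 40 (0 unadjusted, 0 by DESeq2), where 5.98% and 3.09% of all genes had an unadjusted p under 0.05. The *Trp53* contrasts gave 0 of 40 before restoration (9 unadjusted, 0 by DESeq2) and 0 of 40 after it (11 unadjusted, 0 by DESeq2), against 0.598% and 0.372% of all genes called and 17.7% and 15.5% unadjusted. The control arms gave 0 of 38 (0 unadjusted, 0 by DESeq2), against 4.61% of all genes unadjusted. Median log2 fold changes in these contrasts lay between −0.05 and 0.14.

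The genes most like *Ajuba* over the 29 units (libraries, with those of 1 *Trp53*-deficient animal summed), by Pearson's r of log2 CPM among 13273 genes, were *Capn2* (0.849), *Stxbp6* (0.836), *Ano1* (0.836), *Arl4c* (0.829) and *Emp2* (0.822). For *Tead2* they were *Adam12* (0.778), *Pmepa1* (0.662), *Tagln* (0.639), *Slc2a13* (0.638) and *Enpp2* (0.638). *Capn2* encodes a calpain protease and *Ano1* a chloride channel, while *Adam12* encodes a metalloprotease and *Tagln* a smooth muscle actin-binding protein. The units share groups and sequencing depth, and *Tead2* rests on few reads, so these correlations only describe the libraries at hand.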

How the data were processed

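RNA from sorted tumor cells was made into ribosomal RNA-depleted libraries. Per the labels, the authors aligned reads with STAR 2.6.1d (mm10) and quantified genes with RSEM 1.2.30. The deposited tables hold expected counts, TPM and effective lengths per gene. The authors' 4 tables of DESeq2 1.26.0 fold changes and p-values and their normalized count table were not used. Libraries were grouped by genotype and treatment in the labels.

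The deposited expected counts were rounded and tested with edgeR 4.0.16 in R 4.3.3 (quasi-likelihood, filterByExpr, TMM, robust dispersion, Benjamini-Hochberg, threshold 0.05). The *Trp53* wild-type libraries shared 1 fit, as did the *Trp53*-deficient units, and all units without KT were fitted together for the interaction. Libraries of 1 *Trp53*-deficient animal, as read from the titles, were summed. CPM compare libraries and the deposited TPM compare genes. Counts limit precision: 3 reads or fewer say little. Scripts were tested on simulated data. The members and lists were chosen with earlier results of these data known. Named were all members, called genes of the wider lists, the 5 genes most like *Ajuba* and *Tead2*, and *Stk11* and *Trp53* as checks. Alternatives were DESeq2 1.42.0, other size factors, count filters, length offsets and a replicate block. Others were female libraries alone (*Trp53* wild-type tumors only), single control arms, and leaving out libraries.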

Additional observations from a re-analysis of the deposited data

Results flagged for a closer look

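In each of the 5 groups the highest and lowest unit of the 10 genes were compared with the others on both scales, CPM and TPM. Of 100 such sets, 6 had a value standing apart by Dixon's criterion, and chance alone gives about 1 in 20. *Ajuba* in restored replicate 4 stood above the other restored libraries both in CPM (10.33) and in TPM (7.31), and *Ajuba* in KT replicate 2 stood above the other KT libraries at 8.301 CPM. *Tead2* in KT replicate 3 stood apart at 4.068 CPM, from 10 reads against 0 or 1 in the other KT libraries. *Tead2* in restored replicate 1 stood apart at 3.9 TPM. That value comes from 2 reads, and in CPM (1.285) the library lay within its group. *Yap1* in restored replicate 2 stood apart at 173.0 CPM.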

How the results depend on the processing

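Over 1397 re-fitted values of 63 log2 fold changes, 1360 stayed the same, 27 lost a call, 2 gained a call, 2 moved further and 6 were tested values that changed sign. Tested values stayed the same if they kept their direction and their side of the threshold. Where no test was made, the bound was a move of less than the gene's SD between libraries, not the SE of the fold change. That SD was taken on log2 of CPM + 1 within each group and averaged over groups. Both signs occurred for 15 of the 63, of which 10 were not tested: *Wwtr1*, *Tead3* and *Tead4* for restored against non-restored tumors (up to 0.0927, 0.07959 and 0.000615), *Tead3* and *Tead4* for the same with *Trp53* deleted, and *Tead1*, *Tead3*, *Tead4*, *Amotl2* and *Yap1* for the difference by *Trp53* status. Of the pathway genes, 5 were called for non-restored against KT tumors, 9 with DESeq2, 2 with effective length offsets, 3 with the replicate number as a block, 0 with female libraries alone, 1 with the tamoxifen arm alone and 2 to 7 when 1 library was left out, with 2 without KT replicate 1 or 3. *Ajuba* lost its call there with female libraries alone (1.22, adjusted p = 0.21) in 1 of 23 re-fits, and ranged from 1.22 to 1.71. For restored against non-restored tumors 0 of the tested pathway genes were called, 2 with DESeq2 (*F3* and *Rbms3*), 1 with the replicate number as a block (*F3*) and 0 to 1 when 1 library was left out. For *Trp53*-deficient against wild-type non-restored tumors 0 were called, and 0 to 6 when 1 library was left out, the 6 without non-restored replicate 8. Among tested values, signs changed for *Yap1* in non-restored against KT tumors with females alone (−0.1447), for *Ajuba* in restored against KT tumors with females alone (−0.05829) and without restored replicate 4 (−0.009536, to 0.3561 without other libraries), for *Tead1* there without KT replicate 1 (−0.0229, to 0.2414), for *Tead2* there without KT replicate 3 (1.406, from −0.6447), and for *Axl* between the control arms without non-restored replicate 2 (−1.19, to 1.344). The cause was not tested. Among 15 pairs of libraries with the same number, the correlation of deviations ran from −0.0547 to 0.501 and passed 0.1 in 6. Pairs with unlike numbers were not examined, so these values cannot decide whether the numbers pair the samples.

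Over all genes, DESeq2 called 1083 in place of 741 for non-restored against KT, 168 in place of 58 for restored against KT, 467 in place of 236 for restored against non-restored, 419 in place of 82 and 216 in place of 51 for the *Trp53* contrasts before and after restoration, and 12 in place of 1 between control arms. *Ajuba* ranged from −1.52 to −1.24 and *Tead2* from −1.72 to −1.30 for restored against non-restored tumors. A filter of at least 10 counts in every library left no value for *Tead2* or *Axl*, and one for *Ajuba* only among *Trp53*-deficient tumors alone. Few reads limit *Tead2*, no male was in either restored group, and the 4 KT libraries limit each comparison with KT.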
